A study of Homo sapiens with 23 samples.

Results

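The transcripts of 53 splicing regulators were followed through depletion of THUMPD3 in A549 cells, an established human lung adenocarcinoma line with epithelial features. The set was a list of gene names grouped by known function, with no threshold on a measured value. Like the other lists below, it was chosen with earlier results of these data known. It held 11 SR proteins, 2 TRA2 proteins, 20 hnRNPs, 10 regulators known for cell-type-specific splicing, 4 factors linked to the core spliceosome, 3 large SR-related proteins and 3 CLK kinases. All 53 were listed among the 61806 genes of the first count table and among the 42901 genes of the table of deep libraries. THUMPD3 is an RNA methyltransferase that modifies guanosine in tRNA, and the deep libraries were made by the study for its analysis of alternative splicing. The question here was where the transcripts of the proteins that choose splice sites stood in the cells.

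The 23 libraries fell into 8 groups. In siD3 #3 (n = 3) A549 cells were transfected with an siRNA against THUMPD3, and siControl (n = 2 here) was its control, both harvested at day 5. In shD3 #1 and shD3 #4 (n = 3 each) an shRNA against THUMPD3 was expressed from a lentiviral vector under doxycycline control in transduced cells selected with puromycin, harvested at day 6, and each had its own untreated controls, sh1Control and sh4Control (n = 3 each). The deep libraries held shD3 #1 and sh1Control again (n = 3 each), with no harvest day given in the sources used here. Controls carry the genotype label WT, and whether they hold the shRNA vector is not given in the sources used here. The labels call the samples biological replicates and say no more of the cultures, so p-values measure the spread between these samples.

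SR proteins bind exonic sequences through RNA recognition motifs and, through domains rich in arginine and serine, generally help the spliceosome to include the exon. hnRNPs coat nascent RNA and often oppose inclusion, so the balance between the families sets many exon choices. CLK kinases phosphorylate the arginine-serine domains and control where SR proteins reside. Many of these genes also regulate their own mRNA through alternative exons that lead to nonsense-mediated decay (NMD). In the GENCODE annotation 43 of the 53 genes had at least 1 transcript of the NMD class (81.1%), against 46.9% of the 12925 protein-coding genes tested in shD3 #1. For the retained-intron class the shares were 81.1% and 60.1%. Such shares grow with the number of transcripts annotated per gene, and the genes were not matched by that number. Counts per gene add NMD transcripts to the coding ones and cannot separate them.

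Library totals ranged from 9854294 to 22101059 counts in the first libraries and from 27285889 to 59974740 in the deep ones. Levels are given in cpm, counts relative to the library total after scaling by the trimmed mean of M-values (TMM) within each comparison, and fold changes are fitted by edgeR with their standard errors and Benjamini-Hochberg adjusted p-values. THUMPD3 itself averaged 61.3 cpm in sh1Control and 31.4 cpm in shD3 #1, 63.2 and 19.8 cpm for sh4Control and shD3 #4, 67.1 and 11.5 cpm for siControl and siD3 #3, and 54.3 and 26.9 cpm in the deep pair, and in every comparison the groups did not overlap. Of 5 epithelial markers, the keratins KRT7, KRT8 and KRT18 were abundant in every group and EPCAM was low, between 2.34 and 19.4 cpm on average. These markers moved too. CDH1, E-cadherin, fell in shD3 #1 (-1.39) and the deep libraries (-1.39) and rose in shD3 #4 (0.30), whereas EPCAM and KRT7 rose in shD3 #1 (1.0 and 0.55) and fell in shD3 #4 (-0.46 and -0.83). Of 12 markers of fibroblasts, endothelium and blood cells, CD3E and DCN had at most 1 count in any library, and the summed level ranged from 3.3 to 19.1 cpm in the first libraries. It was higher in the knockdowns (16.9 to 19.1 cpm in shD3 #1 against 7.5 to 8.4 cpm in sh1Control), with COL1A1, COL3A1 and LUM as the main source, and 3 to 5 of the 12 passed the count filter. In the deep libraries it was 54.0 to 57.8 cpm in sh1Control and 121 to 130.2 cpm in shD3 #1, mostly from CD68. Whether either set of markers has a part in the results below was not tested. The third siD3 #3 library stood apart from the other two of its group, with 29.8% of its counts on mitochondrial genes against 34.4% and 36.5%, so results of siD3 #3 are also given without it where they change. By this share the second shD3 #4 library also differed from its group, at 37.4% against 31.2% and 33.4%. The smallest library was the third of shD3 #1.

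The 2 tables did not give the regulators the same levels. Between sh1Control of the first and of the deep libraries, 6 of the 53 differed by more than 4-fold in mean cpm. HNRNPH2 was 339-fold, CLK2 45.5-fold and RBFOX2 8.71-fold lower in the deep table, and SRRM2 was 9.49-fold and SRSF1 5.67-fold higher. The tables name genes by different identifiers, and the paper names a RefSeq annotation for its counts. In GENCODE 35.1% of the exonic bases of SRSF1 are shared with exons of another gene on either strand. That share was 15.8% for HNRNPH2, 3.14% for SRRM2 and 0 for CLK2 and RBFOX2. It was also 46.7% for SRSF9, 27.7% for SRSF2 and 19.0% for HNRNPU. Overlaps in the annotation used for counting may differ. Whether the annotation or the libraries set these levels was not tested, and every comparison below was made within a table.

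Promoter sequences are shown for 4 regulators that stand for the patterns described below. SRSF3 and HNRNPF fell in every comparison, MBNL2 rose in 3 and fell in shD3 #4, and SRSF8 was the regulator called higher for siD3 #3 minus the mean of the shRNAs. Each run is the 250 bases before the first start site in the RefSeq promoter table (build GRCh38.p14), 5′ to 3′ on the strand of the gene, and windows with more than 30 annotated exon bases were not printed. The windows are chr6:36594112-36594361, plus strand for SRSF3, chr10:43408858-43409107, minus strand for HNRNPF, chr11:95066627-95066876, plus strand for SRSF8 and chr13:97141584-97141833, plus strand for MBNL2. The MBNL2 window belongs to an upstream RefSeq start and ends 79601 bases before the gene start in GENCODE, and the HNRNPF window lies inside the GENCODE gene, so neither stands at the outermost GENCODE start. Capitals mark matches on either strand to the motifs listed in the next paragraph.
SRSF3: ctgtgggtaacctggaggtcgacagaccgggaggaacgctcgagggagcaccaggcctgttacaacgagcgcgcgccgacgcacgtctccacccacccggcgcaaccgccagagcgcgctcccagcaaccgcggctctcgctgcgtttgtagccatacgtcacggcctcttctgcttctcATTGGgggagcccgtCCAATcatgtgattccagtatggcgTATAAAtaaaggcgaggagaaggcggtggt
HNRNPF: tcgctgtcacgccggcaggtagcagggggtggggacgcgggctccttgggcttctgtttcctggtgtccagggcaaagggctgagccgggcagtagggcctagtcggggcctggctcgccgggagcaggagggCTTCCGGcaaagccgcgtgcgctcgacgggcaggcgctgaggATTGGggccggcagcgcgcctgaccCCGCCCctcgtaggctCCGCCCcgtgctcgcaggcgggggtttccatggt
SRSF8: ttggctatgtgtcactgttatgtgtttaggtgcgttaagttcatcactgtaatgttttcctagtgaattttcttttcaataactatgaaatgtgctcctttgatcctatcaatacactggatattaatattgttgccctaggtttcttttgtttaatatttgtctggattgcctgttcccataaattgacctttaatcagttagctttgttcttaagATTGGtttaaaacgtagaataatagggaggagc
MBNL2: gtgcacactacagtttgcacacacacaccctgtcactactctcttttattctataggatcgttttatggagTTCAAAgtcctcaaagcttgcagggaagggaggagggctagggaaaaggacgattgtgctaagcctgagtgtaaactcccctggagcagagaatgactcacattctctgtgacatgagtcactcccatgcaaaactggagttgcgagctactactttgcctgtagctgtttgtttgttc

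The table held 71 promoters of 45 of the 53 genes. The GC content of the printed window was 62.4% for SRSF3, 72.4% for HNRNPF, 33.6% for SRSF8 and 46.8% for MBNL2, beside a median of 64.8% over the promoters of the regulators and 58.0% over all 35116 promoters. The GC box GGGCGG was in 56.3% of the regulators' promoters and 42.6% of all, and the CCAAT box CCAAT in 39.4% and 32.0%. The E2F motifs TTTCCCGC or TTTGGCGC were in 9.86% against 1.93%, in promoters of 6 genes. The other motifs were the TATA box TATAAA (8.45% and 10.7%), the ETS core CCGGAAG (9.86% and 8.52%), the NRF1 core CGCATGCG (4.23% and 1.73%), the cell-cycle element TTTGAA (11.3% and 13.3%) and the cAMP element TGACGTCA (0 and 1.65%). No motif contains another, and these shares describe letters in a window, with no test.

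Most of the regulators were lower after THUMPD3 depletion, by modest amounts. In shD3 #1, 45 of the 52 that passed the count filter lay below 0, with a median log2 fold change of -0.35, and in siD3 #3 40 of 51 lay below 0 with a median of -0.43. In shD3 #4 the median was -0.18 (42 of 52 below 0), and in the deep shD3 #1 libraries it was -0.26 (43 of 52 below 0). Over all genes tested the medians lay between -0.02 and 0.03, and 47.9% to 51.1% of genes lay below 0. As a share of all counts, the 53 genes made up 0.889% to 0.912% in sh1Control and 0.719% to 0.763% in shD3 #1, and 0.833% to 0.882% in siControl and 0.546% to 0.632% in siD3 #3, so these groups did not overlap. In bulk RNA, less RNA per cell and fewer cells of a kind cannot be told apart.

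At an adjusted p under 0.05, 41 of the 52 regulators tested fell and 5 rose in shD3 #1, where 27.8% of all genes fell and 28.6% rose. In shD3 #4, 27 fell and 3 rose (20.8% and 20.0% of all genes), in siD3 #3, 28 fell and 2 rose (16.4% and 16.6%), and in the deep libraries 34 fell and 7 rose (31.5% and 31.1%). These genes were well counted, with a median of 2389 counts in sh1Control against 228 over all genes tested, and a small change passes such a test more easily at high counts, in either direction. Without the third siD3 #3 library, 33 fell and 3 rose there. 18 regulators fell at this threshold in all 4 comparisons, namely SRSF1, SRSF2, SRSF3, SRSF7, SRSF9, TRA2B, HNRNPA0, HNRNPA1, HNRNPA2B1, HNRNPA3, HNRNPC, HNRNPF, HNRNPH1, HNRNPR, HNRNPU, HNRNPUL1, PTBP1 and U2AF2. That was 36% of the 50 tested in all 4, where 5.79% of 13535 genes did so. Both shD3 #1 comparisons used the same shRNA.

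**Figure D1:**
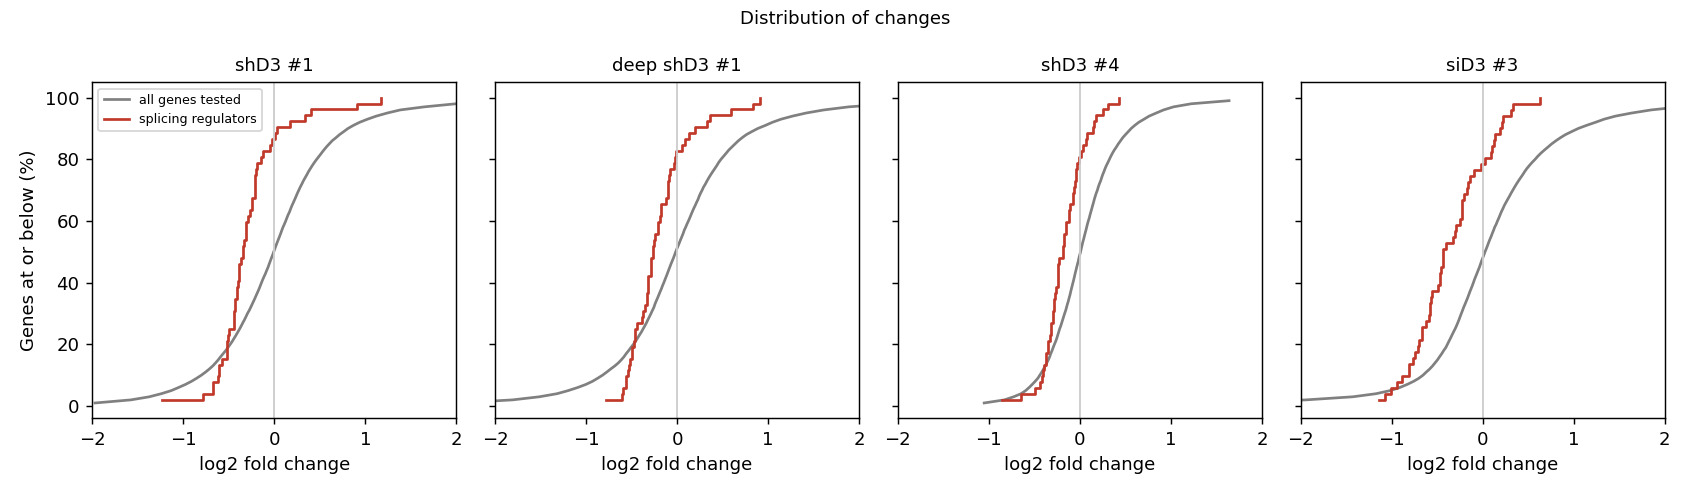
Cumulative share of genes (y axis, percent) at or below each log2 fold change (x axis) in the 4 comparisons, for the regulators tested (red steps) and for all genes tested (grey, from the 1st to the 99th percentile). The red line lies left of the grey one over the middle of each panel, with medians of -0.35, -0.26, -0.18 and -0.43 from left to right, and the far left tails are no longer than those of all genes.

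Few of these falls were large. A regulator was called where its adjusted p was under 0.05 and its level moved by 1.5-fold or more. By that rule 7 of 52 were called lower in shD3 #1 (13.5%), close to the 14.6% of all genes, and 2 were called higher beside 14.5% of all genes. In shD3 #4, 2 were called lower (3.85%, beside 4.49% of all genes) and none higher by edgeR (8.00% of all genes). 4 regulators were higher there at an unadjusted p under 0.05, and DESeq2 also called 0 higher. In the deep libraries 3 were called lower (5.77%, beside 14.1%) and 3 higher (beside 15.0%). siD3 #3 stood out with 15 of 51 called lower (29.4%, beside 9.42%) and 1 called higher (beside 12.5%), and without the third siD3 #3 library 17 were called lower and none higher by edgeR, where 3 rose at the adjusted p alone. 29 of the 53 were called in no comparison, and the share of all genes called in none was not counted.

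**Figure D2:**
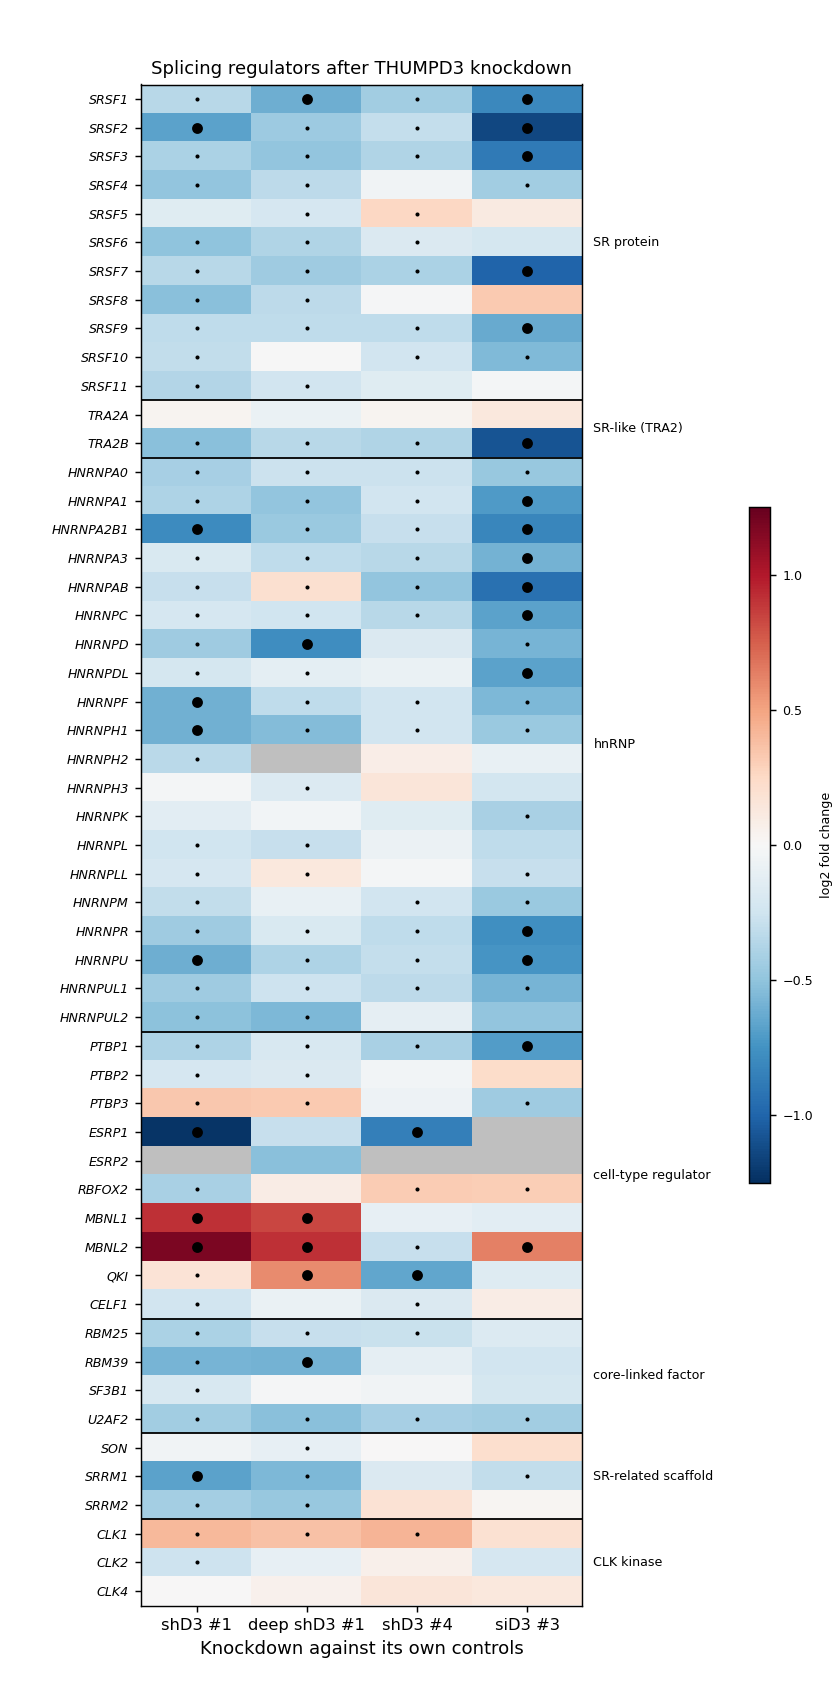
Log2 fold change (colour, blue lower and red higher) of the 53 regulators (rows, grouped by role) in the 4 comparisons (columns). Large dots mark calls past both thresholds, small dots an adjusted p under 0.05 alone, and grey cells genes that did not pass the count filter. The siD3 #3 column holds 15 of the large dots on blue, and MBNL1 and MBNL2 are the red cells with large dots in shD3 #1.

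All 11 SR proteins were tested everywhere. In shD3 #1 10 of them fell at the adjusted p and all 11 lay below 0, and the deep libraries gave the same counts. In shD3 #4, 7 fell and 1 rose. In siD3 #3 7 fell, 5 of them past both thresholds, and 2 lay above 0. Of all genes, 27.8% fell at the adjusted p in shD3 #1, 31.5% in the deep libraries, 20.8% in shD3 #4 and 16.4% in siD3 #3. In shD3 #4 20.0% of all genes rose, and in siD3 #3 9.42% were lower past both thresholds. The limit of high counts given above holds here too. The order of the family in sh1Control of the first libraries, per kilobase of exonic sequence, ran from SRSF2 (81.4 cpm per kb) to SRSF8 (4.68 cpm per kb). In sh1Control of the deep libraries it ran from SRSF1 (87.7 cpm per kb) to SRSF8 (4.14 cpm per kb), with SRSF2 at 60.7. SRSF1 stood at 15.4 cpm per kb in the first libraries.

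SRSF2 (ENSG00000161547.17, chr17:76734115-76737333) encodes SC35, an SR protein that recognises both C-rich and G-rich exonic enhancers. It measured 244, 235 and 247 cpm in sh1Control and 153, 150.1 and 154 cpm in shD3 #1, and every knockdown library lay below every control (log2 fold change -0.67 ± 0.06, adjusted p = 5.6e-08). In siD3 #3 the fall was larger, from 289.8 and 285 cpm in siControl to 125, 126 and 141 cpm (log2 fold change -1.14 ± 0.09, adjusted p = 0.0001). The values were -0.29 ± 0.06 in shD3 #4 and -0.46 ± 0.04 in the deep libraries, which passed the adjusted p without the fold threshold. SRSF8, a closely similar SR protein, was low (22.11 and 20.6 cpm in siControl) and did not follow it. SRSF8 measured 29.6, 29.7 and 21.3 cpm in siD3 #3, where the third library lay within the range of the controls (log2 fold change 0.33 ± 0.16, adjusted p = 0.15), yet it fell in shD3 #1 (log2 fold change -0.52 ± 0.09, adjusted p = 8e-05).

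SRSF7 (ENSG00000115875.19, chr2:38743599-38751494), an SR protein with a zinc knuckle that also shuttles to the cytoplasm and promotes mRNA export, measured 122 and 130.2 cpm in siControl and 59.3, 59.3 and 70.2 cpm in siD3 #3. The groups did not overlap (log2 fold change -1.0 ± 0.10, adjusted p = 0.00033). In shD3 #1 and shD3 #4 its log2 fold changes were -0.34 and -0.40, again with no overlap between the groups. SRSF3, its nearest relative and the smallest SR protein, fell beside it in siD3 #3 from 209 and 227 to 116, 112 and 127 cpm (log2 fold change -0.88 ± 0.09, adjusted p = 0.00039), and its log2 fold changes were -0.40 and -0.37 under shD3 #1 and shD3 #4.

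SRSF1 (ENSG00000136450.13, chr17:58000919-58007346), the founding SR protein and a known oncogenic splicing factor, was called in 2 comparisons. In the deep libraries it went from 511, 514 and 495 to 319, 329 and 350.1 cpm (log2 fold change -0.61 ± 0.05, adjusted p = 2.7e-08), which became -0.58 without the first knockdown library. In siD3 #3 it measured 56.8, 46.9 and 54.8 cpm against 82.6 and 103 cpm (log2 fold change -0.81 ± 0.12, adjusted p = 0.0024). SRSF9, its paralogue, fell by similar amounts in shD3 #1 and shD3 #4 (both -0.31) and was called in siD3 #3 (-0.63 ± 0.11).

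SRSF4, SRSF5 and SRSF6 form the third subfamily, with paired recognition motifs and long arginine-serine tails, and none of them was called. SRSF6 gave -0.50, -0.18, -0.22 and -0.38 in shD3 #1, shD3 #4, siD3 #3 and the deep libraries, of which the siD3 #3 value did not pass the adjusted p. SRSF5 was the SR protein that rose in shD3 #4, from 102, 113 and 111 to 126, 141 and 124 cpm (log2 fold change 0.26 ± 0.07, adjusted p = 0.0029), while it fell in the deep libraries (-0.21 ± 0.05). SRSF10, a splicing repressor when dephosphorylated, and SRSF11 fell in shD3 #1 (-0.31 and -0.37), and SRSF10 gave -0.01 in the deep libraries, where its groups overlapped.

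The TRA2 paralogues did not move together. TRA2B (ENSG00000136527.19, chr3:185914558-185938103), which binds GA-rich exonic enhancers, measured 162 and 179.8 cpm in siControl and 77.7, 78.2 and 87.7 cpm in siD3 #3 (log2 fold change -1.07 ± 0.10, adjusted p = 0.00017). In shD3 #1 it went from 181, 169 and 173 to 125, 121 and 118 cpm (log2 fold change -0.52 ± 0.06, adjusted p = 1.7e-06), and it fell also in shD3 #4 (-0.38 ± 0.06) and the deep libraries (-0.35 ± 0.04). TRA2A, which binds the same enhancers, did not pass in any comparison, although its groups did not overlap in siD3 #3 (knockdown above) and the deep libraries (knockdown below). Its values were 0.03 ± 0.10, 0.03 ± 0.07, 0.13 ± 0.11 and -0.09 ± 0.05 for shD3 #1, shD3 #4, siD3 #3 and the deep libraries. The difference between the paralogues was not tested as such.

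**Figure D3:**
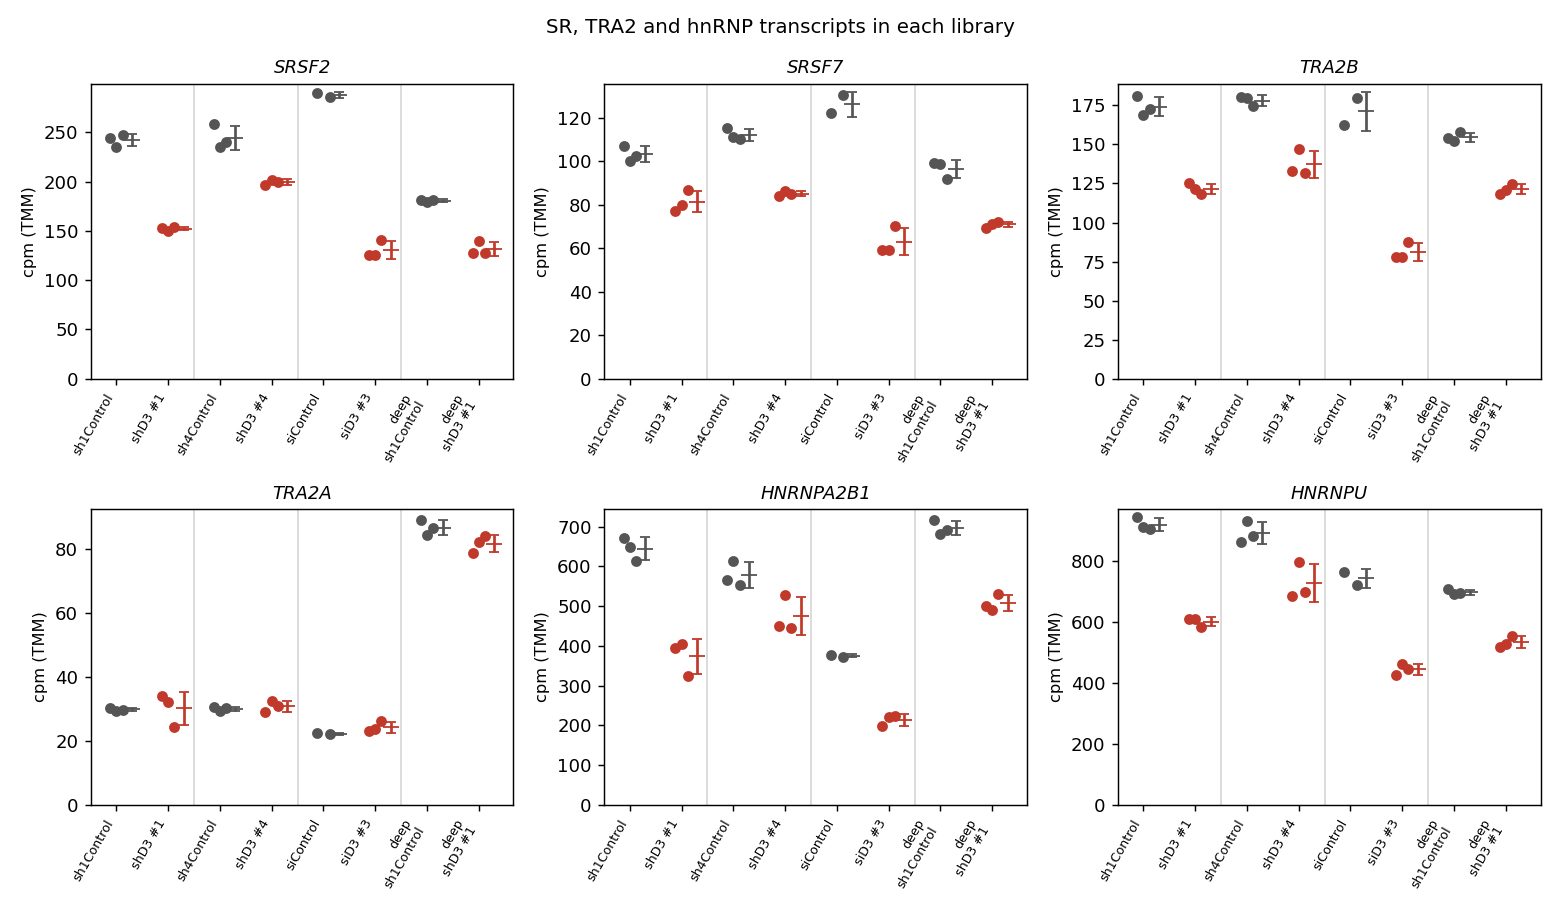
Levels (cpm, TMM-scaled within each comparison, y axes from 0) of 6 regulators in every library, with control groups in grey and knockdowns in red, and the mean and SD of each group beside the points. SRSF2, SRSF7, TRA2B, HNRNPA2B1 and HNRNPU lie below their controls in each pair, and TRA2A does not.

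Of the 20 hnRNPs, all lay below 0 in shD3 #1 and in siD3 #3. 18 fell at the adjusted p in shD3 #1 (90%, beside 27.8% of all genes), 16 in siD3 #3 (80%, beside 16.4%) and 12 in shD3 #4 (60%, beside 20.8%). In the deep libraries 15 of the 19 tested fell (78.9%, beside 31.5%) and 2 rose (10.5%, beside 31.1%). High counts limit these shares as said above. HNRNPA2B1 (ENSG00000122566.22, chr7:26171151-26201529), an abundant A/B-type protein that binds UAG motifs and represses exons, measured 672, 649 and 615 cpm in sh1Control and 394, 404 and 323 cpm in shD3 #1 (log2 fold change -0.79 ± 0.08, adjusted p = 2.7e-07). Leaving out the third shD3 #1 library, the lowest of the group, gave -0.69. In siD3 #3 it fell from 377 and 372 to 197, 220.0 and 223 cpm (log2 fold change -0.81 ± 0.09, adjusted p = 0.00065). Of its paralogues, HNRNPA1 was called lower in siD3 #3 (-0.71 ± 0.10) and fell to a smaller extent elsewhere (-0.39, -0.23 and -0.50). HNRNPA3 was called lower in siD3 #3 (-0.59 ± 0.16), with 54.8% of its exonic bases shared with other genes in GENCODE on either strand. HNRNPA0 ranged from -0.47 to -0.27.

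HNRNPD (ENSG00000138668.19, chr4:82352498-82374503), also known as AUF1 and a regulator of AU-rich mRNAs, gave the largest fall of the deep libraries, from 148, 149 and 152 to 80.8, 88.4 and 92.5 cpm (log2 fold change -0.78 ± 0.05, adjusted p = 5.7e-09). In the first libraries it fell in shD3 #1 (-0.44 ± 0.08) and siD3 #3 (-0.58 ± 0.13), and in shD3 #4 the groups overlapped (-0.18 ± 0.07). Its relative HNRNPDL was called in siD3 #3 (-0.67 ± 0.08). HNRNPAB, the third of this group, changed sign between tables. It measured 185, 180.1 and 193 cpm in sh1Control and 158, 169 and 129 cpm in shD3 #1 and fell (log2 fold change -0.29 ± 0.08, adjusted p = 0.0071), whereas in the deep libraries it rose from 158, 161 and 167 to 185, 188 and 186 cpm (log2 fold change 0.20 ± 0.04, adjusted p = 0.00051). In siD3 #3 HNRNPAB was called lower (-0.94 ± 0.08).

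The F/H proteins bind runs of G, and 2 of the 4 were called in shD3 #1. HNRNPF fell from 325, 305 and 308 to 197, 204 and 218 cpm (log2 fold change -0.60 ± 0.06, adjusted p = 3.9e-07) and HNRNPH1 from 727, 718 and 709 to 470.0, 488 and 461 cpm (log2 fold change -0.60 ± 0.05, adjusted p = 1.2e-07). HNRNPH2 fell there too (-0.34 ± 0.07) and could not be tested in the deep libraries, where it had 8, 12 and 5 counts in sh1Control and 0, 1 and 4 in shD3 #1. HNRNPH3 passed the adjusted p in the deep libraries alone (-0.17 ± 0.05), and its difference from the other comparisons was not tested. HNRNPU, the scaffold attachment factor, measured 942, 911 and 903 cpm in sh1Control and 609, 609.6 and 583 cpm in shD3 #1 (log2 fold change -0.61 ± 0.05, adjusted p = 9.7e-08), and was also called in siD3 #3 (-0.74 ± 0.10). HNRNPC, which binds U-tracts, and HNRNPR were called in siD3 #3 (-0.67 ± 0.10 and -0.76 ± 0.08). HNRNPK, a KH-domain protein, passed in siD3 #3 (-0.41 ± 0.09) and gave -0.13, -0.15 and -0.03 elsewhere, without passing.

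The regulators known for cell-type-specific splicing held the clearest rises. MBNL1 and MBNL2 are zinc-finger proteins that bind GC-containing motifs and favour splicing patterns of differentiated tissues. MBNL2 (ENSG00000139793.20, chr13:97221434-97394120) measured 36.0, 38.7 and 37.5 cpm in sh1Control and 80.3, 80.2 and 93.9 cpm in shD3 #1, with a wide gap between the groups (log2 fold change 1.18 ± 0.08, adjusted p = 2.6e-09). It rose in the deep libraries from 42.1, 43.3 and 41.8 to 87.0, 80.1 and 72.9 cpm (log2 fold change 0.92 ± 0.06, adjusted p = 7.3e-09). In siD3 #3 it rose from 37.9 and 46.3 to 61.0, 61.6 and 72.5 cpm (log2 fold change 0.63 ± 0.12, adjusted p = 0.0072), and this call was lost without the first siControl library (0.48, adjusted p = 0.064) and fell under the fold threshold without the third siD3 #3 library (0.54). Under shD3 #4 MBNL2 fell instead, from 40.7, 40.4 and 39.6 to 33.6, 32.7 and 32.4 cpm (log2 fold change -0.29 ± 0.07, adjusted p = 0.001).

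MBNL1 (ENSG00000152601.18, chr3:152243828-152465780) rose with it in shD3 #1, where it measured 187, 187 and 193 cpm in sh1Control and 336, 350.1 and 383 cpm in shD3 #1 (log2 fold change 0.91 ± 0.06, adjusted p = 5.1e-09), and in the deep libraries it went from 162, 169.5 and 168 to 292, 298 and 298 cpm (log2 fold change 0.83 ± 0.04, adjusted p = 2.7e-10). In the other knockdowns it did not pass, with -0.10 ± 0.06 in shD3 #4 and -0.13 ± 0.08 in siD3 #3. In GENCODE 15.9% of its exonic bases are shared with other genes on either strand.

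QKI (ENSG00000112531.17, chr6:163414000-163578592), a STAR-family protein that binds ACUAA elements and is known for roles in epithelial to mesenchymal change, was the regulator called in both directions. It measured 60.1, 64.3 and 62.4 cpm in the deep sh1Control and 96.4, 91.2 and 93.2 cpm in the deep shD3 #1 (log2 fold change 0.59 ± 0.05, adjusted p = 5.2e-08), and in the first shD3 #1 libraries it rose less, to 82.0, 83.9 and 81.8 cpm from 70.5, 76.9 and 72.3 cpm (log2 fold change 0.17 ± 0.06, adjusted p = 0.027). In shD3 #4 it fell from 77.7, 70.1 and 73.6 to 49.3, 49.9 and 42.2 cpm (log2 fold change -0.65 ± 0.07, adjusted p = 6.3e-08). Each of these calls lay close to the fold threshold and dropped under it without 1 library, at -0.57 without the third shD3 #4 library and at 0.56 or 0.57 without the first control or the first knockdown deep library. In siD3 #3 the groups overlapped (-0.16 ± 0.13).

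RBFOX2 (ENSG00000100320.24, chr22:35738736-36028824), which binds GCAUG, also split by knockdown. It fell in shD3 #1, from 76.4, 77.2 and 77.4 to 58.9, 57.2 and 57.8 cpm (log2 fold change -0.41 ± 0.06, adjusted p = 3.1e-05), and rose in shD3 #4 (77.1, 80.3 and 76.2 to 98.3, 98.4 and 93.7 cpm, log2 fold change 0.31 ± 0.06, adjusted p = 0.00021) and siD3 #3 (0.31 ± 0.09). In the deep libraries, where its level was 8.71-fold lower, the groups overlapped (0.09 ± 0.10).

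The polypyrimidine tract-binding proteins, which repress exons by binding CU-rich tracts, were measured side by side, and differences between them were not tested. PTBP1, the form of non-neuronal cells, fell in all 4 comparisons and was called in siD3 #3, where it measured 214 and 168 cpm in siControl and 118, 116 and 118 cpm in siD3 #3 (log2 fold change -0.70 ± 0.11, adjusted p = 0.0029). PTBP3 rose in shD3 #1 (log2 fold change 0.34 ± 0.06, adjusted p = 0.00027) and in the deep libraries (0.33 ± 0.04) and fell in siD3 #3 (-0.44 ± 0.12). PTBP2, the neuronal form, fell in shD3 #1 (-0.21 ± 0.08) and the deep libraries (-0.18 ± 0.07). CELF1, which binds GU-rich elements and often acts against MBNL proteins, fell in shD3 #1 (-0.24 ± 0.06) and shD3 #4 (-0.18 ± 0.06).

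The epithelial regulators ESRP1 and ESRP2 were near the floor of detection in these cells. ESRP1 (ENSG00000104413.18) had 20, 15 and 17 counts in sh1Control and 5, 9 and 3 in shD3 #1 (log2 fold change -1.23 ± 0.36, adjusted p = 0.0079), and 25, 25 and 15 counts in sh4Control and 12, 8 and 14 in shD3 #4, where the groups overlapped (log2 fold change -0.86 ± 0.32, adjusted p = 0.035). DESeq2 did not call it in either (adjusted p = 0.051 and 0.11), nor did edgeR in shD3 #4 without the first or second library of either group. ESRP1 did not pass the count filter in siD3 #3, and ESRP2 had at most 6 counts in any first library and passed the filter in the deep libraries alone (-0.52 ± 0.52).

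**Figure D4:**
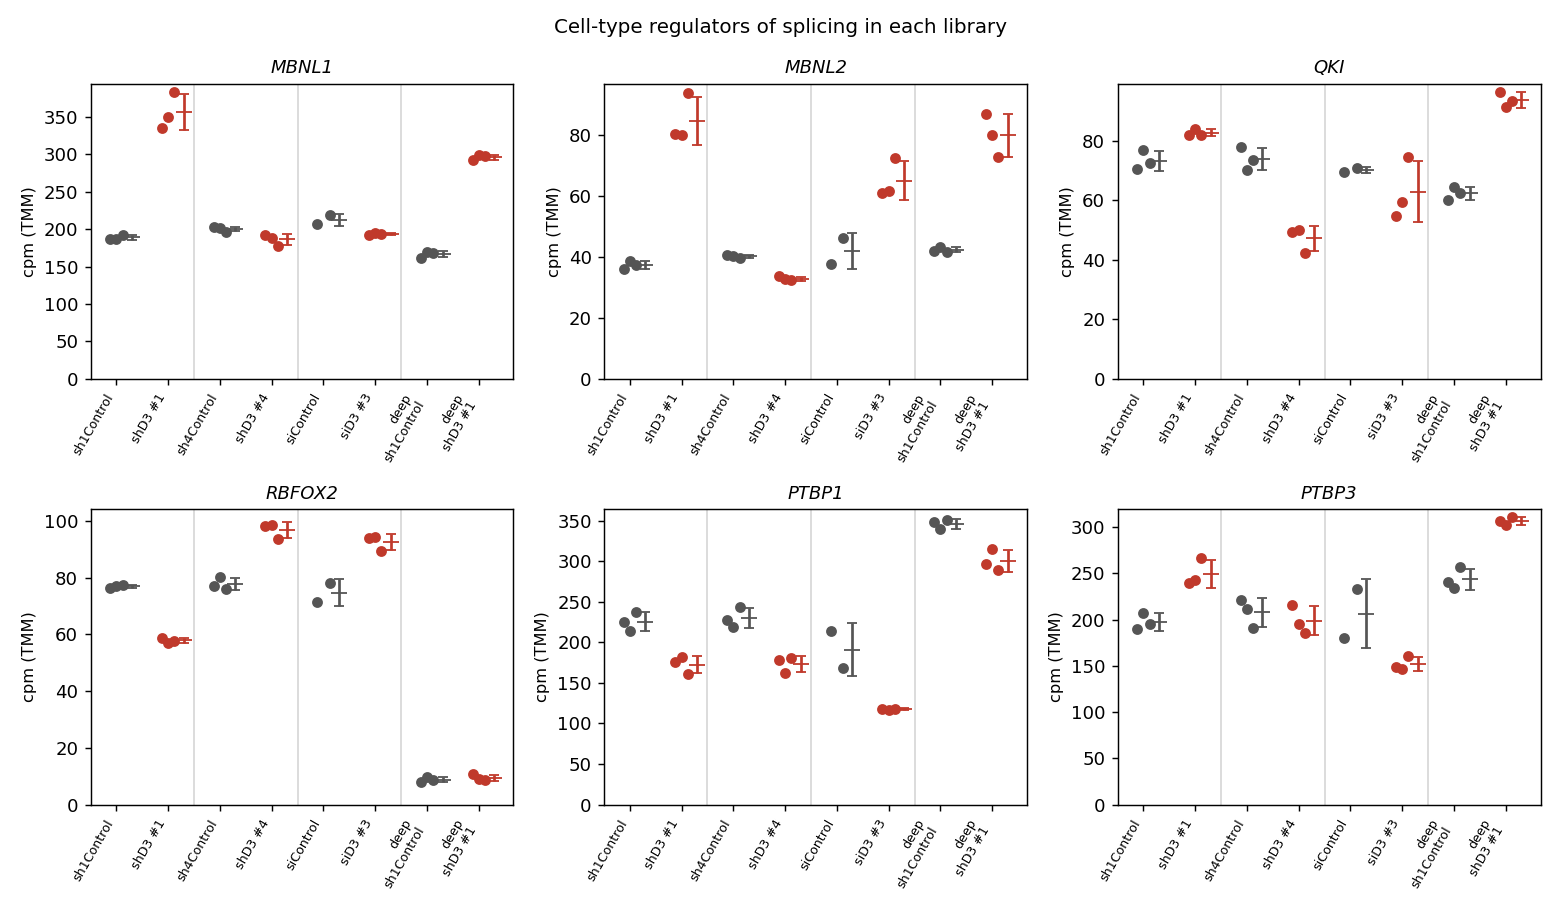
Levels (cpm, TMM-scaled within each comparison, y axes from 0) of 6 cell-type regulators in every library, controls in grey and knockdowns in red, with the mean and SD of each group beside the points. MBNL1 and MBNL2 are higher in both shD3 #1 pairs, QKI is lower in shD3 #4, and RBFOX2 is below 11 cpm in the deep libraries and between 57 and 99 cpm in the first ones.

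Among factors tied to the core machinery, RBM39 (ENSG00000131051.24, chr20:35701347-35742312), a U2AF-related coactivator, was called lower in the deep libraries, from 256, 248 and 252 to 166, 168 and 169 cpm (log2 fold change -0.59 ± 0.04, adjusted p = 8e-09). The first shD3 #1 libraries gave -0.58 ± 0.06, just under the fold threshold, and the deep call was lost by DESeq2 (-0.58) and without either first library (-0.58). U2AF2, the large subunit that binds the polypyrimidine tract at the 3′ splice site, fell in all 4 comparisons, with log2 fold changes of -0.44, -0.42, -0.44 and -0.52. RBM25 passed in the shRNA comparisons (-0.39, -0.27 and -0.28), and SF3B1, which grips the branch point, passed in shD3 #1 (-0.20 ± 0.06) and gave -0.02 ± 0.04 in the deep libraries.

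SRRM2 (ENSG00000167978.17, chr16:2752626-2772538) and SON, large disordered proteins that build nuclear speckles, were measured with SRRM1, a splicing coactivator. SRRM1 was called lower in shD3 #1, from 84.3, 87.5 and 83.4 to 55.6, 54.8 and 49.7 cpm (log2 fold change -0.67 ± 0.07, adjusted p = 3.9e-07). SRRM2 fell in shD3 #1 (139, 148 and 157 to 112, 130.1 and 86.3 cpm, log2 fold change -0.43 ± 0.10, adjusted p = 0.0026) and in the deep libraries (-0.47 ± 0.05), whereas its groups overlapped in shD3 #4 (0.18 ± 0.09) and siD3 #3 (0.03 ± 0.17). SON stayed between -0.10 and 0.21 in the 4 comparisons and passed in the deep libraries alone (log2 fold change -0.10 ± 0.04, adjusted p = 0.035).

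The kinase CLK1 went against the fall of its SR protein substrates. It rose from 32.2, 30.3 and 30.7 to 38.8, 41.1 and 43.6 cpm in shD3 #1 (log2 fold change 0.40 ± 0.07, adjusted p = 0.00013), from 30.8, 31.2 and 29.1 to 39.1, 43.1 and 40.5 cpm in shD3 #4 (log2 fold change 0.43 ± 0.07, adjusted p = 1.9e-05) and in the deep libraries (0.36 ± 0.06), each time with every knockdown library above every control. In siD3 #3 the groups did not overlap either, at an adjusted p of 0.12. CLK4 did not pass in any comparison, and CLK2 fell in shD3 #1 (-0.26 ± 0.08). CLK1 was singled out after its values were seen.

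The knockdowns were then set against each other in 1 model of the 17 first libraries, where each shRNA and the siRNA keeps its own controls. Between shD3 #1 and shD3 #4, 3 regulators were called higher in shD3 #1 (5.77%, beside 12.1% of all genes) and 2 lower (3.85%, beside 13.8%). The differences of log2 fold changes were 1.46 ± 0.12 for MBNL2, 1.01 ± 0.09 for MBNL1 and 0.82 ± 0.13 for QKI (adjusted p = 9.2e-09, 2.2e-08 and 3.6e-05). They were -0.73 ± 0.08 for RBFOX2 (adjusted p = 9.1e-07) and -0.61 ± 0.21 for SRRM2 (adjusted p = 0.025), and the last was lost without any of 4 single libraries, with values between -0.59 and -0.45. Of the 9 cell-type regulators tested, 3 were called higher (33.3%, beside 12.1% of all genes) and 1 lower (11.1%, beside 13.8%). At the adjusted p alone 15 of 52 regulators were lower (28.8%, beside 19.8% of all genes), among them 5 SR proteins and 5 hnRNPs, and 4 were higher (7.69%, beside 19.6%).

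**Figure D5:**
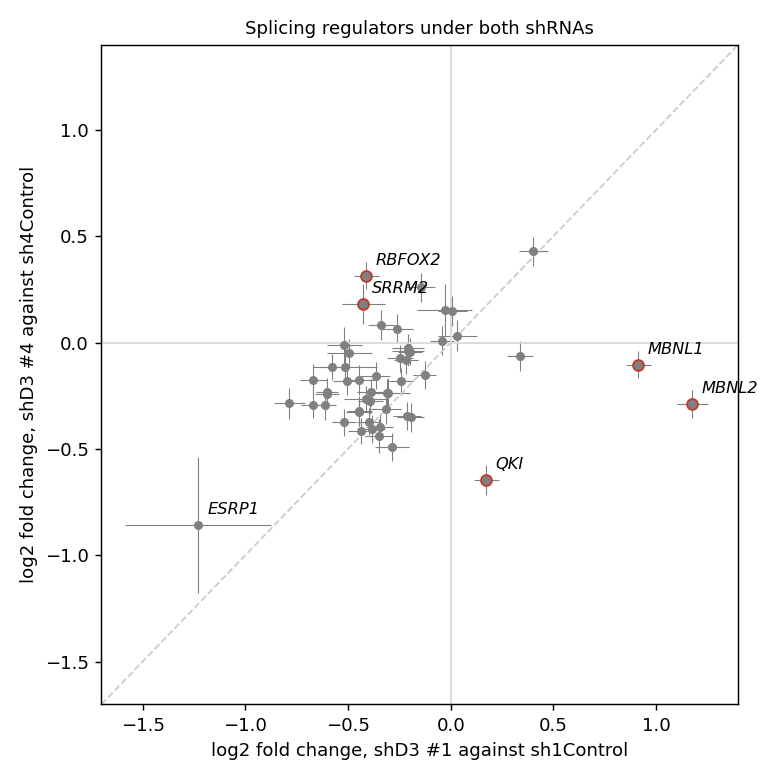
Log2 fold change of each regulator in shD3 #1 (x axis) and shD3 #4 (y axis), each against its own controls, with standard errors as bars and the line of equal change dashed. The 5 genes called for their difference are ringed in red, with MBNL1, MBNL2 and QKI to the right of the line and RBFOX2 and SRRM2 to its left, and ESRP1 has the widest bars.

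Between siD3 #3 and the mean of both shRNAs, SRSF2, SRSF7 and TRA2B were called lower under the siRNA (3 of 52, 5.77%, beside 7.12% of all genes) and SRSF8 higher (1 of 52, beside 9.43%). The differences were -0.64 ± 0.08, -0.62 ± 0.09 and -0.61 ± 0.09 for the first 3 (adjusted p = 5.1e-06, 3e-05 and 2.6e-05) and 0.61 ± 0.15 for SRSF8 (adjusted p = 0.0034). TRA2B came to -0.56 without the second siControl library, and SRSF8 lay between 0.52 and 0.57 without any of 4 single libraries. Residual THUMPD3 also differed, at 11.5 cpm in siD3 #3 against 31.4 and 19.8 cpm in shD3 #1 and shD3 #4, and whether it sets these differences was not tested.

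The first and the deep shD3 #1 libraries could be compared for 51 regulators. 47 had the same sign and 36 passed the adjusted p in the same direction in both, while 2 passed in opposite directions, namely HNRNPAB and HNRNPLL (-0.21 ± 0.08 and 0.13 ± 0.05). The shares were 92.2%, 70.6% and 3.92%, against 79.5%, 47.2% and 2.51% of the 13882 genes tested in both. The regulators had higher counts, with control medians of 2389 and 8352 in the first and deep libraries. Over all genes tested these medians were 228 and 606. Small changes pass more easily at high counts, and the genes were not matched by count. Across the 51 the log2 fold changes correlated with a Pearson r of 0.82, a description over genes that share libraries. The calls were less alike. MBNL1 and MBNL2 were called in both, and none of the 7 genes called lower in the first libraries was called lower in the deep ones. All of the 7 but ESRP1 still fell at the adjusted p in the deep libraries, by less than the fold threshold. The share of all genes called in both was not counted.

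Other parts of the splicing machinery were counted from lists, also chosen with earlier results of these data known. The shares of all genes called lower, given above, were 14.6% in shD3 #1, 4.49% in shD3 #4, 9.42% in siD3 #3 and 14.1% in the deep libraries. Of 43 core snRNP genes, 15 were called lower in siD3 #3 (34.9%), led by SNRPD1, an Sm ring protein (-1.56). In shD3 #1 3 were called lower (6.98%, the largest LSM4 at -0.70), in shD3 #4 2 (4.65%, SNRPB at -0.62) and in the deep libraries 6 of 42 tested (14.3%, LSM7 at -1.38). Outside siD3 #3 the shares called lower were thus close to those of all genes or under them. The medians of the list were -0.07, -0.33, -0.49 and -0.16 in shD3 #1, shD3 #4, siD3 #3 and the deep libraries. Those of the 53 regulators were -0.35, -0.18, -0.43 and -0.26. In shD3 #4 and siD3 #3 41 of the 43 snRNP genes lay below 0, in shD3 #1 25, and in the deep libraries 31 of 42. At the adjusted p alone 7 of the snRNP list rose (16.3%) and 15 fell (34.9%) in shD3 #1, beside 28.6% and 27.8% of all genes. In shD3 #4 0 rose and 33 fell (76.7%), beside 20.0% and 20.8% of all genes. Of 21 NTC and exon junction proteins, MAGOHB was the largest fall in shD3 #1 (-0.86) and the deep libraries (-0.71), each the 1 called, and EIF4A3, the helicase core of the exon junction complex, led the 3 called in siD3 #3 (-0.80). In shD3 #4 13 of the 21 fell at the adjusted p (61.9%, beside 20.8% of all genes), all under the fold threshold. Of the 21, 19 lay below 0 in shD3 #4 and 19 in siD3 #3, against 10 in shD3 #1 and 15 in the deep libraries.

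Of 7 kinases and phosphatases of SR proteins, PRPF4B was the 1 called, in shD3 #1 (-0.59), and SRPK1 fell at the adjusted p in all 4 comparisons (-0.36, -0.17, -0.39 and -0.23). Of 12 NMD factors, NBAS was the 1 called, in shD3 #1 (-0.98). Of 59 other splicing regulators, 7 of 55 tested were called lower in shD3 #1 (12.7%, RSRC1 at -0.98), 3 of 55 in shD3 #4 (5.45%, KHDRBS3 at -0.70), 7 of 56 in siD3 #3 (12.5%, RBMX, the X-linked hnRNP G, at -1.07) and 5 of 56 in the deep libraries (8.93%, NOVA2 at -0.84). 1 was called higher in shD3 #1, 1 in siD3 #3 and 2 in the deep libraries. The medians of this list were -0.29, -0.09, -0.27 and -0.15 in shD3 #1, shD3 #4, siD3 #3 and the deep libraries. CELF2, the largest rise by fit in siD3 #3 and the deep libraries, was nearly undetected, at up to 0.054 cpm in siControl and 0.80 to 0.86 cpm in siD3 #3.

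Markers of cycling cells moved in the same direction as the splicing regulators. All 10 (among them MKI67, TOP2A and CDK1) fell in each first comparison at the adjusted p, and 8 of 10 did in the deep libraries. The median log2 fold change of the 10 was -3.39 in siD3 #3, where the regulators' median was -0.43, -1.06 in shD3 #1, -0.54 in shD3 #4 and -0.50 in the deep libraries. The share of mitochondrial counts moved as well, from 24.8% to 27.3% in siControl to 29.8% to 36.5% in siD3 #3, and from 31.4% to 33.6% in sh1Control to 29.0% to 29.6% in shD3 #1. Of 3 nuclear long noncoding RNAs, NEAT1 rose in all 4 comparisons (0.96, 0.43, 1.79 and 1.46 in the order shD3 #1, shD3 #4, siD3 #3, deep). KCNQ1OT1 fell in shD3 #1 (-0.59) and the deep libraries (-0.71) and rose in shD3 #4 (0.23), and MALAT1 rose in shD3 #4 (0.58) and siD3 #3 (1.3) and fell in the deep libraries (-0.36). The part of these in the fall of the splicing regulators was not tested.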

How the data were processed

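The study measured rRNA-depleted total RNA of A549 cells in 23 libraries, 17 in a first table and 6 in a table of deep libraries. The deposited values are raw counts per gene that the authors made with Trimmomatic 0.40 and STAR 2.7.10a on GRCh38. Which strand was counted is not given in the sources used here. The first table lists Ensembl identifiers and the deep one symbols, and 61757 of 61806 and 27502 of 42901 genes matched GENCODE 44. The quasi-likelihood test of edgeR 4.0.16 (R 4.3.3) set every knockdown against the controls made for it, with TMM and filterByExpr on the whole table and Benjamini-Hochberg adjustment. Differences between knockdowns were interaction contrasts in 1 fit of the 17 first libraries. DESeq2 1.42.0, glmTreat, other filters, a replicate block and leaving out each library were alternatives, and the fits were tested on simulated data. In the shRNA comparisons same-numbered libraries deviated together by correlations of -0.08 to 0.07, and differently numbered ones by -0.06 to 0.06. Pairing by number was not seen there. In siD3 #3 same-numbered libraries gave -0.11 to 0.14. With 2 controls these values mirror each other, so they cannot decide whether numbers pair samples.

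The members and lists were chosen with earlier results of these data known. Named with values in every library were regulators called alike in at least 3 of 4 comparisons, called in opposite directions, or among the 3 largest calls in each direction of a comparison or difference, with their paralogues. From each list the largest call was named, and other genes were chosen after their values were seen.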

Additional observations from a re-analysis of the deposited data

Results flagged for a closer look

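For 9 regulators the effect of THUMPD3 depletion differed between knockdowns by the interaction contrast of the edgeR fit to the first libraries. Between the shRNAs, shD3 #1 minus shD3 #4 on the log2 scale, the difference was 1.46 for MBNL2, 1.01 for MBNL1, 0.82 for QKI, -0.73 for RBFOX2 and -0.61 for SRRM2. MBNL2, QKI and RBFOX2 passed the adjusted p in opposite directions under shD3 #1 and shD3 #4. Between siD3 #3 and the mean of both shRNAs it was -0.64 for SRSF2, -0.62 for SRSF7, -0.61 for TRA2B and 0.61 for SRSF8. siD3 #3 was harvested at day 5 and the shRNA groups at day 6, so the kind of knockdown and the day cannot be told apart.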

How the results depend on the processing

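With the adjusted p alone and no fold threshold, the regulators called higher and lower went from 2 and 7 to 5 and 41 in shD3 #1, from 0 and 2 to 3 and 27 in shD3 #4, from 1 and 15 to 2 and 28 in siD3 #3 and from 3 and 3 to 7 and 34 in the deep libraries. For shD3 #1 minus shD3 #4 those lower went from 2 to 15, and for siD3 #3 minus the shRNAs 5 were higher and 16 lower. By glmTreat, which tests against the fold threshold, 1, 0, 5 and 1 were lower in shD3 #1, shD3 #4, siD3 #3 and the deep libraries, and 0 higher in siD3 #3. In shD3 #4 DESeq2 called 1 lower, as did a minimum of 10 counts in every library. Without the count filter the deep median was -0.29, 1 regulator rose at the adjusted p alone in siD3 #3, and 0 were higher for siD3 #3 minus the shRNAs. With 1 fit of all 17 libraries 5 rose at the adjusted p alone in siD3 #3.

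Leaving out 1 library at a time gave 6 to 8 lower and a median of -0.37 to -0.30 in shD3 #1, 1 to 2 lower and a median of -0.24 to -0.14 in shD3 #4, 14 to 17 lower, 0 to 1 higher and 0 to 3 risen at the adjusted p alone in siD3 #3, and 2 to 4 lower, 2 to 3 higher and a median of -0.28 to -0.23 in the deep libraries. It gave 1 to 2 lower for shD3 #1 minus shD3 #4 and 0 to 1 higher for siD3 #3 minus the shRNAs. The cause was not tested.

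With the replicate number as a block, 0 were higher in siD3 #3, since MBNL2 came to 0.55. Whether the numbers pair the siD3 #3 samples could not be decided with 2 controls. Of 450 values of the 28 calls on named regulators under the alternatives, 411 kept the call, 39 lost it and 0 reversed. The 411 include the adjusted p alone from the same fit, which every call passes by construction, so they overstate how well the calls held. siControl had 2 libraries here, and the third siD3 #3 library stood apart, which limits siD3 #3.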
